A study of Homo sapiens with 24 samples.

Results

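The 10 genes described here, CNOT1, CNOT2, CNOT3, CNOT4, CNOT6, CNOT6L, CNOT7, CNOT8, CNOT10 and CNOT11, encode subunits of the CCR4-NOT complex. They were listed by name for that membership, by a rule that uses no measured value, although earlier results of these data were known when the group was proposed. They are 10 of 20056 protein-coding genes with a RefSeq span. CNOT9, a further core subunit, was not among the chosen genes and is given only for comparison.

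CCR4-NOT shortens the poly(A) tail of cytoplasmic mRNA, the usual first step of mRNA decay. CNOT1 is the scaffold, CNOT2 and CNOT3 form the NOT module bound to it, CNOT7 or CNOT8 and CNOT6 or CNOT6L are the paired nucleases, CNOT10 and CNOT11 form a module at the other end of the scaffold, and CNOT4 is an associated ubiquitin ligase. The reader YTHDF2 binds mRNA that carries N6-methyladenosine (m6A) and recruits the complex through CNOT1, so these genes encode the machinery that removes methylated transcripts. The question here is whether their own transcripts held m6A summits, and whether that differed between lines.

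The study used HepG2, an established liver cancer cell line. Stable lines were made with lentiviruses carrying EGFP (the control), METTL14 (WT), METTL14 (R298P) or METTL14 (D312A), and transduced cells were selected with puromycin. METTL14 is the partner of METTL3, the enzyme that writes m6A. The labels describe overexpression in each case and name neither a deletion of the endogenous gene, nor the promoter used, nor a clone. From 3 biological replicates per line, fragmented poly(A) RNA was precipitated with an anti-m6A antibody, which gave 12 libraries, and 12 input samples were sequenced beside them. All values here come from the summits, the highest points of the m6A peaks, in the authors' deposited list for each of the 12 precipitated libraries. All coordinates are on hg38.

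The 12 lists held between 8669 summits (D312A replicate 2) and 15373 summits (EGFP replicate 1). The reads behind each list are unknown, so a gene without a summit has no summit called at that depth and is not shown to be unmethylated. Summit number also cannot tell more methylation of a transcript from more of that transcript. All 13 hepatocyte markers held summits. By contrast, 1 of 6 fibroblast and stellate (PDGFRB), 3 of 6 blood and macrophage (CD68, CD14 and LYZ) and 2 of 4 endothelial markers (PECAM1 and CDH5) held any. PTPRC, VWF, COL1A1 and COL1A2 were among those at 0. The summed number for the hepatocyte markers ran from 12 to 109 per library, and for each of the other lists from 0 or 2 to at most 6.

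Most m6A summits of the complex lay in 3 of its genes. The 10 subunits held 79 summits in all, or 0.0509% of the 155075 deposited. Of these, 70 (88.6%) lay in CNOT2, CNOT4 and CNOT6, while CNOT1, CNOT3, CNOT6L, CNOT7 and CNOT11 shared the other 9, and CNOT8 and CNOT10 held 0. A summit was present in at least 1 of 12 libraries for 8 of 10 subunits, in at least 9 for 3 and in all 12 for 2. Among all protein-coding genes these shares were 51.3%, 25.7% and 17%, so for the steadily marked genes the subunits lay near this background. It includes any genes not expressed in HepG2 and was matched neither for expression nor for gene length.

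**Figure D1:**
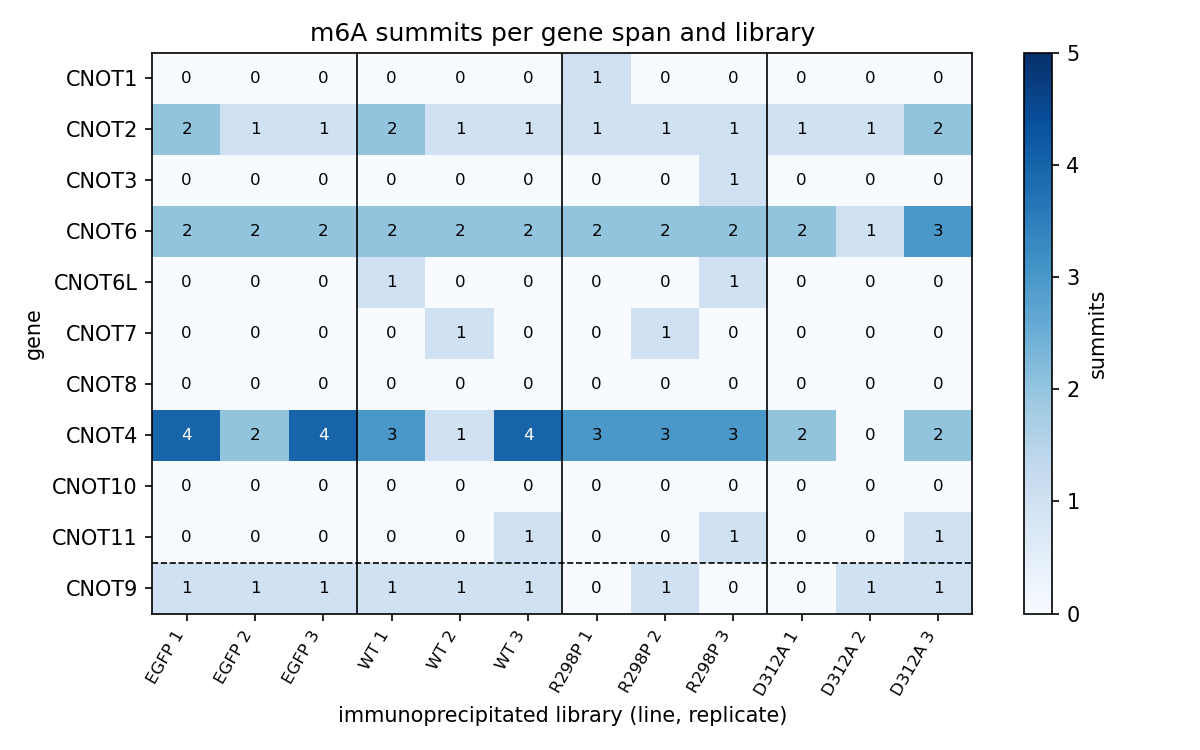
Number of m6A summits in the span of each gene (rows) in each precipitated library (columns, 3 per line); the colour follows the printed number, and CNOT9 below the dashed line is shown for comparison. CNOT2, CNOT4 and CNOT6 hold 70 of the 79 summits of the 10 subunits, and CNOT8 and CNOT10 hold 0.

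Summed over the 10 subunits, EGFP replicates 1, 2 and 3 held 8, 5 and 7 summits, those of WT held 8, 5 and 8, those of R298P 7, 7 and 9, and those of D312A 5, 2 and 8. The ranges of the 4 lines overlapped. Means with SD (n = 3 each) were 6.67 ± 1.53 for EGFP, 7.0 ± 1.73 for WT, 7.67 ± 1.15 for R298P and 5.0 ± 3.0 for D312A. R298P exceeded WT by 0.67 summits, which is smaller than the spread in either line. The lowest value, in D312A replicate 2, came from the shortest list, and with all lists reduced to that length D312A minus EGFP was 0.33 in place of -1.67.

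CNOT1, the scaffold, held a single summit in all 12 libraries, in R298P replicate 1 (chromosome 16, 58629764). It lay 62 nt inside the higher-coordinate end of the span (58519951 to 58629826), where transcription of CNOT1 begins. Its rank was low, with 81.2% of the list reached when summits are ordered from the best value down. This ordering within a list is called the list rank below, where a small percentage is a strong summit.

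CNOT2, which with CNOT3 forms the NOT module, held a summit in every library. EGFP replicates 1, 2 and 3 held 2, 1 and 1, WT held 2, 1 and 1, R298P held 1, 1 and 1, and D312A held 1, 1 and 2. The leading site (chromosome 12, 70354843 to 70354868) was present in 11 of 12 libraries within 26 nt, and lay 125 to 150 nt before the 3′ end of the span (70243018 to 70354993). The library without it was R298P replicate 1. List ranks at this site were 80.5%, 37.0% and 21.2% in EGFP, 35.5%, 28.6% and 41.8% in WT, and 74.4%, 10.9% and 13.2% in D312A for replicates 1, 2 and 3. They were 88.1% and 58.0% in R298P replicates 2 and 3, lower in the list than in each WT library, but lists of different length do not allow ranks to show a change.

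A less frequent site of CNOT2 lay upstream (70353997 to 70353999), 994 to 996 nt before the 3′ end. It was present in replicate 1 of EGFP, WT and R298P and in replicate 3 of D312A and in no other library. The names of the deposited lists also set replicate 1 of every line apart from replicates 2 and 3. What part this difference has in the presence of that site was not tested. CNOT3 held 1 summit in all, in R298P replicate 3 (chromosome 19, 54148491) at a list rank of 94.5%. That position also lies in the span of the lncRNA gene LOC102724273, and the lists carry no strand, so it cannot be assigned to CNOT3 alone.

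Of the 4 nucleases, CNOT6 held nearly all summits. CNOT6, a CCR4-type deadenylase, held 2 summits in each EGFP, WT and R298P library and 2, 1 and 3 in D312A replicates 1, 2 and 3. These lay in 2 sites at opposite parts of the gene (chromosome 5, 180494379 to 180578358). Sequences at the starts of CNOT6, of its paralog CNOT6L and of CNOT11 are shown because summits of these genes lay within 100 nt of the annotated start. Each stretch is 30 bases of transcript-strand sequence from RefSeq (GRCh38.p14), taken from the first 50 transcribed bases. Capitals mark GGAC, the most common core of m6A sites, in CNOT6 and CNOT11, and the summit base in CNOT6L.
CNOT6 (chr5:180494379-180494408, plus strand): gagGGACggcggccgccgccatgatgcttg
CNOT11 (chr2:101252890-101252919, plus strand): tttacggccgcggGGACggagcgagccggc
CNOT6L (chr4:77820222-77820251, minus strand): cacgtcaatcaacccTcctcgttctcgcac
In the first 50 bases, GGAC occurred once in CNOT6 and once in CNOT11 and 0 times in CNOT6L, and GGAT (GGAU in RNA) 0 times in each. Of all 35116 start windows in the table, 18.9% held GGAC and 12.5% held GGAT in their first 50 bases on the transcript strand, the only strand searched. These matches describe the sequence and are not mapped sites. The summits of CNOT6 and CNOT11 lay from 80 nt after the start on, past the window that the table holds.

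The site at the start of CNOT6 (180494459 to 180494684) was present in 11 of 12 libraries and absent from D312A replicate 2. Its summits were spread over 226 nt, from 80 to 305 nt after the annotated start. Within a line they did not settle on a position. They lay 105, 105 and 247 nt after the start in R298P replicates 1, 2 and 3, 104, 192 and 286 nt in WT, and 305, 83 and 177 nt in EGFP. D312A replicate 1 had its summit at 85 nt and replicate 3 held 2 summits, at 80 and 267 nt. The best list rank was 15.7%, in R298P replicate 1, and the other 11 summits ranked from 42.5% to 99.6%.

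The second site of CNOT6 (180574262 to 180574355), 4003 to 4096 nt before the 3′ end, was the only site of any subunit present in all 12 libraries. Summits fell at 3 places within it. In EGFP they lay at 180574262, 180574262 and 180574263, in WT at 180574264, 180574264 and 180574310, and in R298P at 180574265, 180574308 and 180574310. In D312A they lay at 180574355, 180574264 and 180574266. Of the 12 libraries, 8 had their summit within 180574262 to 180574266, R298P replicates 2 and 3 and WT replicate 3 lay at 180574308 to 180574310, and D312A replicate 1 lay farthest downstream. The R298P and WT positions overlapped. List ranks at this site ran from 25.2% in EGFP replicate 3 to 91.5% in D312A replicate 1.

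The other 3 nucleases held few summits. CNOT6L held 1 in WT replicate 1 (chromosome 4, 77720584), 7197 nt before the 3′ end of its span (77713387 to 77820269), with a list rank of 30.8%. It held 1 more in R298P replicate 3 (77820236), 33 nt after the annotated start, with a list rank of 89.4%. CNOT7, a CAF1-type deadenylase, held 1 in WT replicate 2 (chromosome 8, 17243064) and 1 in R298P replicate 2 (17246726). The R298P summit lay 131 nt inside the higher-coordinate end of the span (17224966 to 17246857), where transcription of CNOT7 begins, and the WT summit 3793 nt inside it. Its close paralog CNOT8 held 0 summits in all 12 libraries (chromosome 5, 154858249 to 154876792).

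CNOT4, the ubiquitin ligase, held the most summits, 31 in all. EGFP replicates 1, 2 and 3 held 4, 2 and 4, WT held 3, 1 and 4, R298P held 3, 3 and 3, and D312A held 2, 0 and 2. The 3 R298P libraries lay above the 3 D312A libraries, whose replicate 2 has the shortest list, whereas the ranges of every other pair of lines overlapped or touched. Means with SD (n = 3 each) were 3.33 ± 1.15 for EGFP, 2.67 ± 1.53 for WT, 3.0 ± 0 for R298P and 1.33 ± 1.15 for D312A. The difference of R298P minus D312A was 1.67 summits (p = 0.1 in a two-sided exact permutation test, the lowest value for 3 against 3 libraries). R298P libraries stood above D312A libraries in this way in 2.52% of the 6538 genes with at least 6 summits, and below them in 0.704%. R298P minus WT was 0.33 (exact permutation test, p = 1.0) and D312A minus EGFP was -2.0 (exact permutation test, p = 0.3). D312A held 1.67 summits fewer than the mean of the other 9 libraries (exact permutation test over 220 choices, p = 0.05, which is not under 0.05, adjusted p over all genes = 1.0), and 2.57% of genes passed in that direction.

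In the span of CNOT4 (chromosome 7, 135361795 to 135510102, minus strand) 3 sites were present in 8 or more libraries. Site A (135394182 to 135394260) was present in 3 EGFP, 1 WT, 3 R298P and 1 D312A libraries. Site B (135393951 to 135394008), a short way downstream, was present in 3 EGFP, 2 WT, 3 R298P and 2 D312A libraries. Site C (135388745 to 135388779) was present in 2 EGFP, 3 WT, 3 R298P and 1 D312A libraries. R298P was the only line with all 3 sites in all 3 libraries, and D312A replicate 2 held none of them. Several of the R298P summits were weak, with list ranks of 73.0%, 53.9% and 96.9% at site A and 37.2%, 58.6% and 99.2% at site B in replicates 1, 2 and 3. With summit values of at least 10, site A was present in 3 EGFP, 1 WT, 1 R298P and 0 D312A libraries. Site C had the best list ranks, from 15.0% to 52.1%. Its R298P summits fell within 135388765 to 135388767, inside the range of the WT summits at 135388745, 135388776 and 135388779. The EGFP summits lay at 135388759 and 135388767 and the D312A summit at 135388753.

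These sites lie 26950 to 32465 nt before the 3′ end of the annotated span. Exons and untranslated regions were not used here, so whether they fall near the stop codon of a shorter transcript is not known. A further 4 summits of CNOT4 were each found in 1 library: 135362823 in EGFP replicate 1, 135363942 in EGFP replicate 3, and 135395701 and 135491080 in WT replicate 3.

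**Figure D2:**
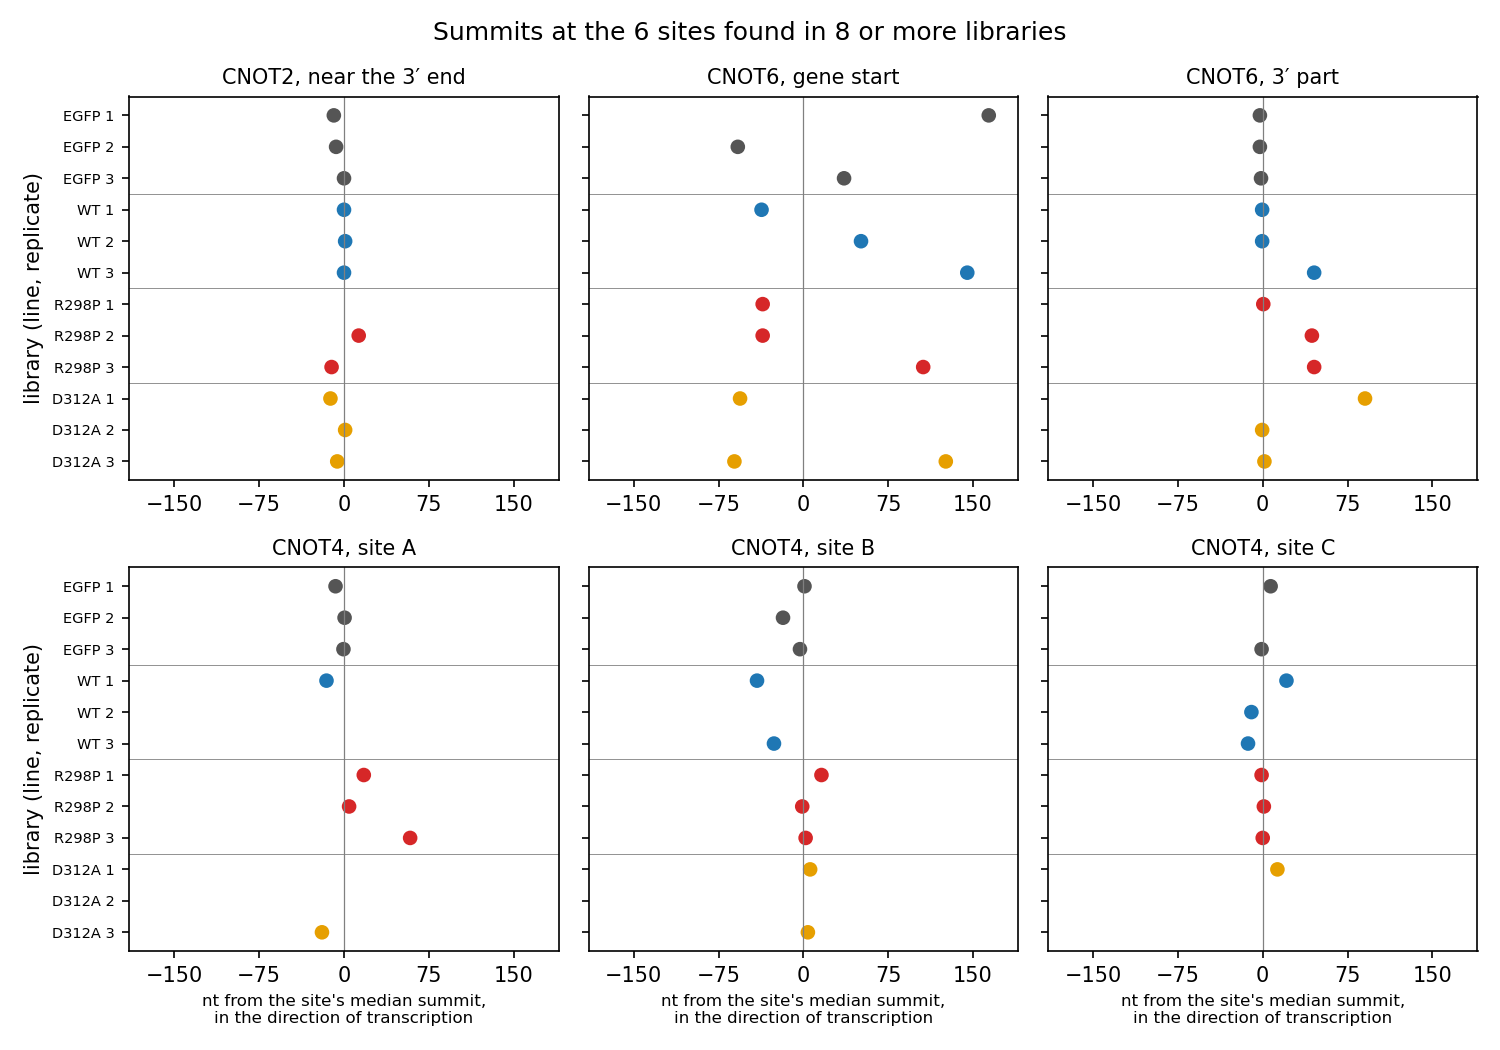
Position of each summit at the 6 sites present in 8 or more libraries, as nt from the median summit of the site in the direction of transcription (x axis), for the 12 libraries (y axis, coloured by line); an empty row is a library with no summit there. The CNOT2 site is narrow, the CNOT6 start site is spread over 226 nt, and the 3 CNOT4 sites are all present in all 3 R298P libraries.

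Of the module at the far end of the scaffold, CNOT10 held 0 summits (chromosome 3, 32685188 to 32773875) and CNOT11 held 3. The CNOT11 summits at 101252966 in R298P replicate 3 and at 101252967 in WT replicate 3 (chromosome 2) lay 80 and 81 nt after the annotated start. The one at 101269425 in D312A replicate 3 lay 891 nt before the 3′ end. All 3 were in replicate 3 libraries, with list ranks from 69.6% to 82.8%.

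No site of a subunit was gained or lost between lines. Summits within 100 nt of each other were merged into regions, which gave 19 regions in the 10 genes. Of these, 11 were present in 1 library (57.9%, against 35.8% of all 34313 regions) and 6 in 8 or more libraries (31.6%, against 25.3% of all regions). A region was called gained when present in 3 of 3 libraries of the first line and 0 of 3 of the second, and lost in the opposite case. In R298P against WT, 6 regions of the subunits were present in at least 3 of the 6 libraries, and 0 were gained and 0 lost. Of all 12761 such regions 1.54% were gained and 3.72% lost, so 0 of 6 does not set these genes apart. The subunits also had 0 gained and 0 lost in WT against EGFP (background 0.854% and 0.534%), R298P against EGFP (1.75% and 3.47%), D312A against EGFP (0.364% and 2.54%), D312A against WT (0.243% and 2.77%) and R298P against D312A (3.22% and 0.799%). Several of these comparisons share libraries and are not independent. In R298P against WT, CNOT4 site A was short of a gain by 1 library, WT replicate 1, and without that library it is gained in R298P and lost in WT against EGFP. Without D312A replicate 3 it is lost in D312A against EGFP and gained in R298P against D312A, and without D312A replicate 1 site C is lost in D312A against WT and gained in R298P against D312A.

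The number of summits per gene was also tested among the 4 lines, for every gene with at least 6 summits over the 12 libraries (exact permutation test of the variance between lines over all 15400 partitions of the libraries). Of the 10 subunits, CNOT2, CNOT4 and CNOT6 reached 6 summits. Exact p was 1.0 for CNOT2, 0.249 for CNOT4 and 1.0 for CNOT6, so 0 of 3 were under 0.05, where 247 of 6538 genes (3.78%) were and 0 genes passed Benjamini-Hochberg adjustment over all genes. The smallest p that these partitions can give is 6.49e-05. With each line set against the other 9 libraries, 0 of these 3 subunits had an exact p under 0.05. Among all genes tested, more summits and fewer summits passed in 2.1% and 0.229% for EGFP, 2.11% and 0.0612% for WT, 1.59% and 2.03% for R298P, and 0.184% and 2.57% for D312A.

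Between pairs of lines, CNOT4 in R298P against D312A was the only case among the 3 tested subunits in which the libraries of the lines did not overlap. For that pair, 2.52% of all genes tested had every R298P library higher and 0.704% every R298P library lower. D312A replicate 2 has the shortest list. In R298P against WT the subunits had 0 of 3, where all genes tested had 0.795% with every R298P library higher and 4.27% with every R298P library lower. The shares higher and lower were 0.933% and 0.688% for WT against EGFP, 0.857% and 4.05% for R298P against EGFP, 0.184% and 3.93% for D312A against EGFP, and 0.107% and 4.34% for D312A against WT.

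Summits at the starts of the subunit genes are given as a description with no test. Within 300 nt after the start, EGFP replicates 1, 2 and 3 held 0, 1 and 1 summits of the 10 subunits, WT held 1, 1 and 2, R298P held 2, 2 and 3, and D312A held 1, 0 and 2. The ranges of R298P, WT and D312A touched. In R298P they fell in 5 subunits (CNOT1, CNOT6, CNOT6L, CNOT7 and CNOT11), in WT in 2 (CNOT6 and CNOT11), and in EGFP and D312A in CNOT6 alone. In R298P, CNOT1, CNOT6L, CNOT7 and CNOT11 each rested on 1 library. The share of all genes with a start summit was not computed line by line. These numbers of subunits therefore have no background and are not read as particular to the subunits. The EGFP replicate 1 summit of CNOT6, 305 nt after the start, fell just outside. CNOT6L was the only one of the 8 subunits with a listed start whose start held a summit in R298P libraries alone, in 1 library, which was so for 2.69% of 15843 protein-coding genes with a listed start. The share was 1.56% for EGFP alone, 1.38% for WT alone and 1.28% for D312A alone. These shares count a summit at any listed start of a gene, whereas the subunits were counted from the end of the span where transcription begins. CNOT1 and CNOT7 have no listed start and are outside that background. At the end where their transcription begins, each held a summit in 1 R298P library and in no library of another line.

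After these subunit numbers were seen, another measure was computed over all protein-coding genes with a listed start, the percent of each list at those starts. It is no background for the numbers of subunits. Summits within 300 nt of the start of a protein-coding gene made up 7.15%, 7.26% and 6.72% of the R298P lists (replicates 1, 2 and 3), 4.84%, 4.63% and 3.73% of the EGFP lists, 5.06%, 4.25% and 4.34% of the WT lists, and 6.11%, 5.18% and 5.64% of the D312A lists. In the full lists all R298P libraries lay above all 9 others, also in number, with 842 to 922 such summits against 449 to 755. The D312A shares, from 5.18% to 6.11%, in turn lay above all EGFP and WT shares, from 3.73% to 5.06%. In number of such summits these 3 lines overlapped. The mean was 7.04% ± 0.287 in R298P (SD, n = 3) and 4.86% in the other 9 libraries, which is 2.18 percentage points apart (p = 0.0045 in a two-sided exact permutation test, the smallest that 220 choices give, adjusted p = 0.0182 over the 4 lines). The subunits held 0 to 3 start summits per library, so leaving them out could hardly change the share and is no check. Without them the difference was 2.18 points with the same exact p. In replicates 2 and 3 alone it was 2.37 points (exact permutation test, p = 0.0357, the smallest that 28 choices can give). That p was not adjusted over the lines. Replicate 1 alone has no test, with 7.15% in R298P against 4.84% to 6.11% in the other lines. The separation depended on list length. With all lists cut to the shortest, R298P shares ran from 4.71% to 5.65%, and D312A replicate 2, the shortest list, stood at 5.18%. With the 5000 best summits of each list, R298P ran from 2.8% to 3.92% and the other libraries from 1.18% to 3.2%.

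**Figure D3:**
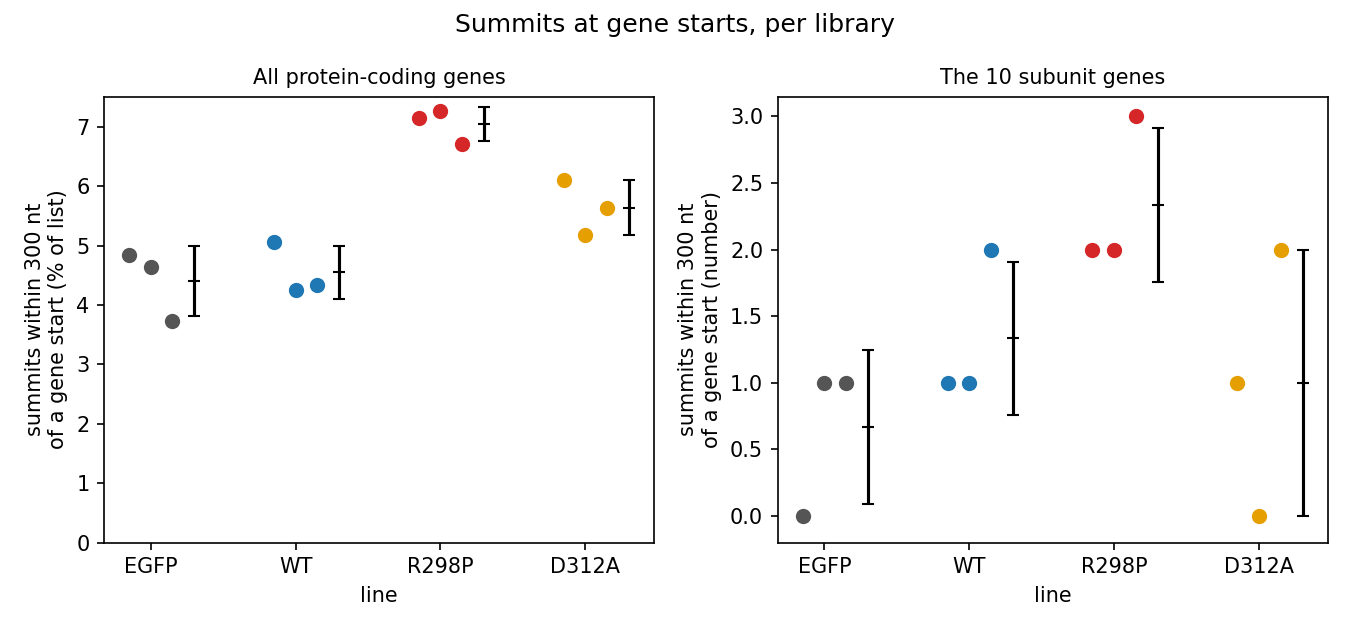
Summits within 300 nt after a gene start in each library, as percent of the list (left) and as number in the 10 subunit genes (right). The left uses all listed starts of protein-coding genes, which leaves out CNOT1 and CNOT7. The right uses the end of each gene span where transcription begins. Points are libraries by line and bars are mean and SD (n = 3). On the left, with the full lists, the 3 R298P libraries lie between 6.72% and 7.26%, above all 9 others. The D312A libraries lie above those of EGFP and WT. On the right the R298P libraries hold 2, 2 and 3 summits.

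Other genes of mRNA decay also held summits. Of 57 genes listed around the complex, 45 held at least 1 summit, 29 held one in at least 9 libraries and 22 in all 12. All protein-coding genes, not matched for expression or length, gave 51.3%, 25.7% and 17%. CNOT9, the core subunit that binds TNRC6 proteins, had a single site (chromosome 2, 218594372 to 218594397), 2683 to 2708 nt before its 3′ end, in 3 EGFP, 3 WT, 1 R298P and 2 D312A libraries. Its numbers were 1, 1 and 1 in EGFP and WT, 0, 1 and 0 in R298P and 0, 1 and 1 in D312A. The test among lines gave an exact permutation p of 0.509. The TNRC6 proteins, which bring the complex to microRNA targets, held the highest numbers of the list, with 76 summits in TNRC6A, 66 in TNRC6B and 87 in TNRC6C over the 12 libraries. XRN1, the exonuclease that degrades decapped mRNA, held 0.

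In R298P against WT, 0 of 90 regions of the decay genes were gained and 4 were lost, in TOB2, EDC3, YTHDF2 and POP1. Of all regions 1.54% were gained and 3.72% lost, so the number lost in the decay genes was near the background. TOB2, an adaptor that binds CNOT7 and CNOT8, lost a region (chromosome 22, 41436272 to 41436307) present in 2 EGFP, 3 WT, 0 R298P and 0 D312A libraries. EGFP held 5.0 ± 1.0 of its summits, WT 4.67 ± 0.577, R298P 3.0 ± 0 and D312A 4.33 ± 1.53 (SD, n = 3). R298P held fewer by 1.67 than the other 9 libraries on average (exact permutation test over 220 choices, p = 0.0318, adjusted p over all genes = 1.0), as did 2.03% of genes at an exact p under 0.05. EDC3, an enhancer of decapping, lost a site (chromosome 15, 74632781 to 74632810) in R298P and in D312A, where 3 EGFP, 3 WT, 0 R298P and 0 D312A libraries held it. Over the whole gene, R298P still held 0.333 ± 0.577 summits and D312A 0, against 1 in each EGFP and WT library (SD, n = 3).

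YTHDF2, the reader that recruits the complex, lost a region (chromosome 1, 28769060 to 28769110) present in 3 EGFP, 3 WT, 0 R298P and 1 D312A libraries. Another of its regions (28743088 to 28743138) was gained in R298P against EGFP, present in 0 EGFP, 1 WT, 3 R298P and 1 D312A libraries. In all, R298P held 3.0 ± 0 of its summits and WT 3.33 ± 0.577 (SD, n = 3). POP1, a subunit of RNase P and RNase MRP, held 2 summits in each EGFP and WT library and 1 in each R298P library, and lost a region (chromosome 8, 98158030 to 98158087) that 1 D312A library held. Of the 38 decay genes tested among lines, EDC3 and POP1 had an exact p under 0.05 (exact permutation test, p = 0.0455 for each, adjusted p = 1.0), against 3.78% of all genes. TOB1, the paralog of TOB2, held 2 summits in each of the 12 libraries.

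**Figure D4:**
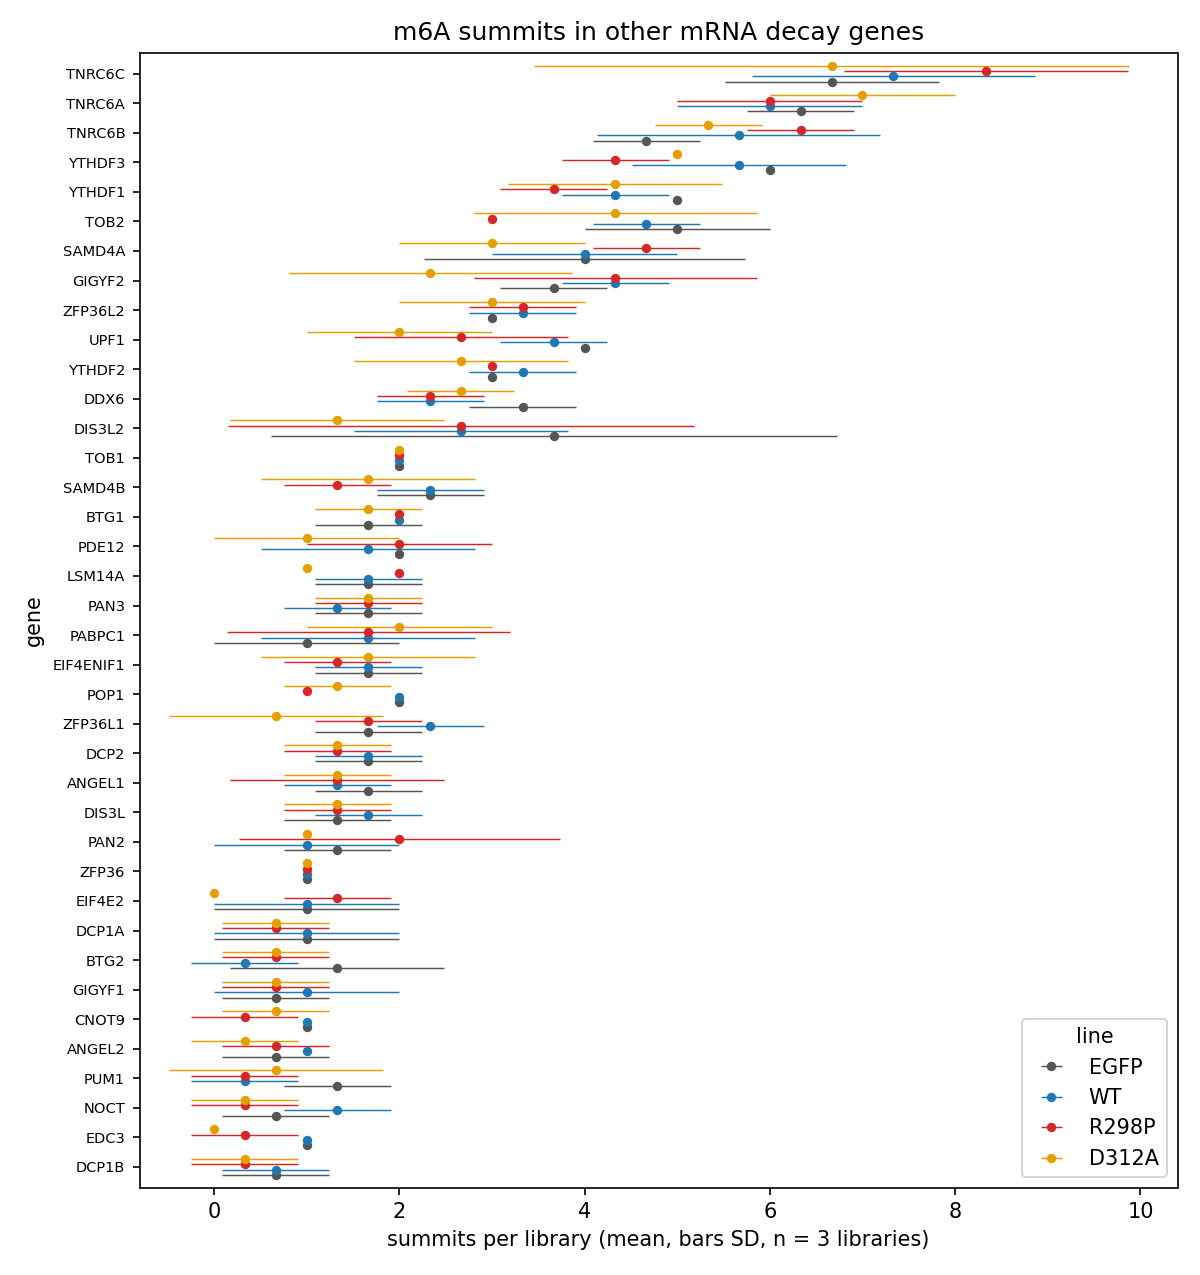
Mean number of m6A summits per library (x axis, bars SD, n = 3 libraries) in the 38 listed mRNA decay genes with at least 6 summits (y axis), by line. The 3 TNRC6 genes hold the most, and TOB2 is at 3.0 in R298P against 4.33 to 5.0 in the other lines.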

How the data were processed

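m6A was measured in 12 precipitated libraries of 4 HepG2 lines. The authors deposited 1 summit list per library, in which each summit carries a value read as −log10 of a p or q value from its range; the sources used here give neither the threshold nor how inputs were matched. STAR 2.7.9a, MACS2 2.1.2 and build hg38 are named per the submitters' processing notes.

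Summit positions are 1-based. Summits were counted inside RefSeq (GRCh38.p14) gene spans, without strand. Exact permutation tests took libraries as replicates and were tested on simulated data (Python 3.11.15, numpy 2.4.6). For the measures over all genes, starts came from the RefSeq start windows, of which a gene can have several. These cover 15843 of the 20056 protein-coding genes and 8 of 10 subunits, without CNOT1 and CNOT7. For the subunits, the start was the end of the gene span where transcription begins. For CNOT1 and CNOT7 this was taken as the higher-coordinate end. The subunits and lists were chosen with earlier results of these data known. All 10 subunits are named. From the decay list, CNOT9, YTHDF2 and genes with a region gained or lost in R298P against WT are named by rule, and XRN1, TOB1 and the TNRC6 genes were added after their values were seen.

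The deposited table of input expression identifies genes by Ensembl identifier alone, which the tables used here do not pair with symbols, and its 18 columns per library carry codes that no label explains, so it was not used and no expression test was run. Alternatives were list length, minimum value, merging distance, overlapping genes, omitted libraries and replicate blocks.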

Additional observations from a re-analysis of the deposited data

How the results depend on the processing

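The number of gained or lost regions in the subunits stayed at 0 in all 6 comparisons with merging within 50 or 200 nt and with lists of equal length. The exceptions were all in CNOT4: with the 5000 best summits of each list 1 region (site C) was gained in R298P against EGFP, and with summit values of at least 10 1 region (site A) was lost in D312A against EGFP. Leaving out single libraries gave 0 to 1 region in each comparison except R298P against EGFP, where it stayed at 0. Those regions were site A or C of CNOT4 and depended on WT replicate 1, D312A replicate 1 or D312A replicate 3. The cause was not tested.

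The difference summed over the 10 subunits ranged from -0.33 to 1.17 summits for R298P minus WT, -0.5 to 1.33 for WT minus EGFP, 0.17 to 1.67 for R298P minus EGFP, -3.17 to -0.17 for D312A minus EGFP, -3.5 to -0.5 for D312A minus WT and 1.17 to 4.17 for R298P minus D312A when single libraries were left out. Within replicate 1 alone it was -1.0 for both R298P minus WT and R298P minus EGFP, opposite in sign to the main values. With lists of equal length, R298P minus WT was 0, D312A minus WT -0.67 and R298P minus D312A 0.67. With the 5000 best summits, D312A minus WT was 0 and R298P minus D312A 0.67, and with values of at least 10 R298P minus WT was 0. These values have no test. For CNOT2, CNOT4 and CNOT6, the test among lines was repeated with lists of equal length, values of at least 10, shares of the list, the replicate block and single libraries left out, and gave no exact p under 0.05. The lowest was 0.0856 for CNOT4 with a single library left out, with 0.0972 for CNOT4 under the replicate block.

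The share at gene starts, added after the data were seen, was higher in R298P under every alternative run: by 1.91 points with lists of equal length (exact permutation test, p = 0.0091), by 1.37 with the 5000 best summits (exact p = 0.0091), by 1.8 with values of at least 10, by 2.02 and 2.25 with windows of 200 and 500 nt, and by 2.04 to 2.34 with single libraries left out. With lists of equal length and with the 5000 best summits R298P no longer lay wholly above the other libraries. Replicate numbers were not taken to pair the libraries, because not every same-numbered pair correlated above 0.1 in its deviations (12 of 18 did, with a range from -0.349 to 0.517), and 6 of 12 libraries correlated best with their own number. With the replicate block the exact p at gene starts was 0.0156, the smallest that 64 choices can give. Unlike the main p, this blocked p was not adjusted over the lines. The blocked exact permutation p was 0.0938 for EGFP, 0.203 for WT and 0.719 for D312A. With these, the R298P value would not be under 0.05 after such an adjustment over the 4 lines. Input expression was not run. The unknown depth of the lists and 3 libraries per line limit all counts.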
